A study of Mus musculus with 6 samples.

Results

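The genes of cholesterol and fatty acid synthesis were examined in cultured astrocytes of the mouse cortex, as a group of 33 genes out of 54532 in the deposited count table. They were chosen by name, with earlier results of these data known. Of them, 24 are sterol genes, comprising enzymes, regulators and a sterol carrier, and 9 belong to the fatty acid branch. All 33 were found once each in the table and all 33 passed the filter on low counts. The knockout cultures came from pups labelled GFAP-Cre::NEOf/f, in which Cre under the promoter of the astrocyte filament gene Gfap deletes floxed Neo1, the gene for the netrin and RGM receptor neogenin. The control cultures came from littermates, per the series' design text, and are called only control in the sample labels, with library names that begin with Neoff and with no allele or Cre status stated. No treatment, time in culture or age beyond "pup" is given in the sources used here, and the labels speak of biological replicates but do not say which litter or dish a library came from, so p-values measure only the spread between these libraries, which may be partly technical.

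Cholesterol is built from acetyl-CoA in a linear route that runs through mevalonate, the isoprenoid diphosphates and squalene to lanosterol, and from there through a set of demethylations, reductions and isomerisations. The fatty acid branch starts from the same acetyl-CoA, which is carboxylated, polymerised to a saturated chain, elongated and desaturated. Most genes of both branches are transcribed under SREBP factors, which SCAP carries out of the endoplasmic reticulum when sterols are scarce and INSIG proteins hold back when sterols are plentiful. In brain, astrocytes are a main source of the cholesterol and polyunsaturated fatty acids that neurons use.

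The libraries held 74614772 to 97453331 counts in the knockout group and 60819277 to 106081115 in the control group. Neo1 was at 101, 106 and 105 CPM (counts scaled to library size with TMM factors) in the knockout libraries against 189, 189 and 198 CPM in the control libraries, a log2 fold change of −0.89 (SE 0.05). Knockout replicate 2 was set off from knockout replicates 1 and 3 along principal component 2 (19.6% of the variance) and had the fewest genes with a count, 22076. Astrocyte markers were present in every library and summed to 2829 to 2964 CPM over 12 genes in knockout cultures and 3138 to 3218 CPM in control cultures, with 2 markers higher and 8 lower. Their directions differed: Gfap was at 428 to 435 CPM in knockout cultures and 924 to 966 CPM in control cultures, whereas the glutamate transporter gene Slc1a2 was at 359 to 390 CPM in knockout and 125 to 142 CPM in control cultures, and the water channel gene Aqp4 at 854 to 914 CPM in knockout and 584 to 646 CPM in control cultures. Markers of other cells also differed. The 14 microglia and macrophage markers summed to 78.4 to 85.5 CPM in knockout and 121 to 125 CPM in control cultures (1 higher, 11 lower), and the 12 fibroblast and meningeal markers to 11020 to 11780 CPM in knockout and 8117 to 8596 CPM in control cultures (7 higher, 2 lower of 11 tested). Mature cells of the oligodendrocyte lineage make sterol and fatty acid for myelin. The 14 markers of this lineage summed to 294 to 339 CPM in knockout and 336 to 345 CPM in control cultures. Of these markers 11 were tested, with 2 higher, 4 lower and log2 fold changes from −2.98 to 1. The myelin genes Mog and Mobp were at or near 0 in all 6 libraries, so the sums came from other genes of the list. The part of these other cells in the differences below was not tested. In such bulk RNA, fewer cells of a type and less RNA per cell cannot be told apart.

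Among the 33 genes, 17 fell and 2 rose in knockout cultures. The words rose and fell are used for an adjusted p under 0.05 (edgeR's quasi-likelihood test, Benjamini-Hochberg adjustment over the 18530 genes tested). Over all those genes 38.3% were called, 19.6% as higher and 18.7% as lower, against 57.6% of the 33 genes, 6.06% as higher and 51.5% as lower. Since calls are more frequent in well expressed genes, the share was also taken over the 9842 genes with a mean of at least 10 CPM, of which 53.6% were called, 27.3% as higher and 26.3% as lower. Because the 33 genes were chosen with earlier results of these data known, the shares only describe them. Of the 24 sterol genes 12 fell and 1 rose, and their median log2 fold change was −0.15. Of the 9 fatty acid genes 5 fell and 1 rose, with a median of −0.19. The median over all tested genes was −0.0018. Scaled by total counts alone, all genes split into 2921 higher and 4499 lower in place of 3627 and 3466, and the 33 genes into 1 higher and 20 lower.

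Most changes were small. Of the 19 genes called, 7 differed by less than 1.2-fold and 3 by at least 1.5-fold, these being Pmvk, Fads2 and Acaca. When tested against a minimum fold of 1.5, 5.47% of all genes were called (3.59% higher, 1.88% lower), and Pmvk alone among the 33. The groups did not overlap for 21 of the 33 genes, with the knockout libraries below the control libraries for 18 and above them for 3. Over all tested genes 49.3% did not overlap, 24.5% with knockout below and 24.7% with knockout above. This share was not taken over the genes with a mean of at least 10 CPM, where it may differ. Summed over the 24 sterol genes the level was 2926, 2992 and 2954 CPM in knockout libraries 1, 2 and 3 against 3260, 3313 and 3275 CPM in control libraries 1, 2 and 3, and over the 9 fatty acid genes 2938, 3001 and 2963 CPM in knockout against 3437, 3432 and 3504 CPM in control libraries. These sums did not overlap between the groups, and the knockout means were lower by 9.91% and 14.2%.

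**Figure D1:**
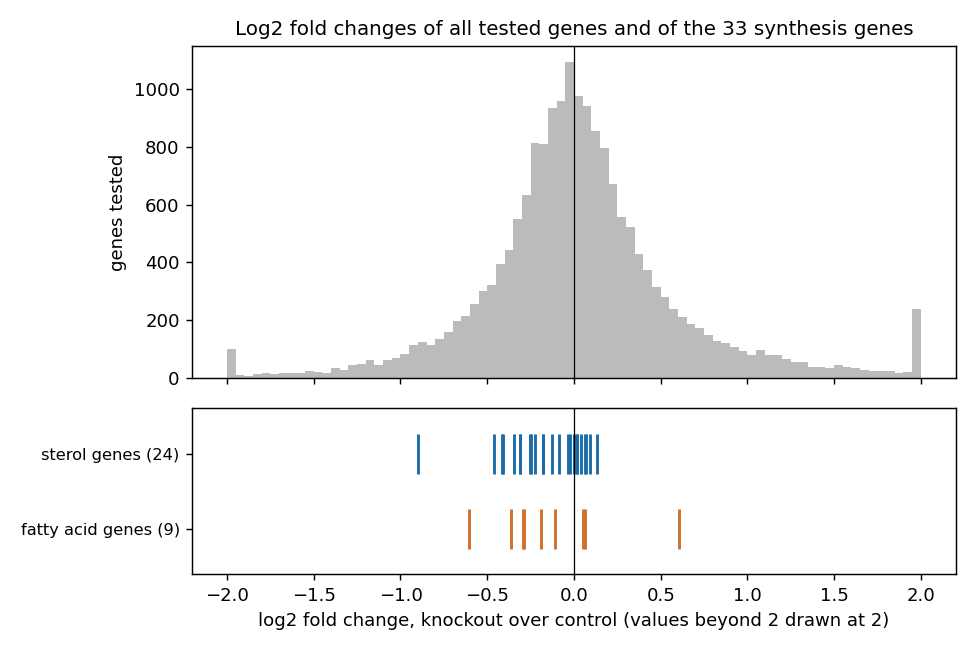
Histogram of the log2 fold change (knockout over control, x axis) of the 18530 tested genes (y axis, number of genes per bin), with each of the 24 sterol and 9 fatty acid genes drawn as a tick below. The ticks lie mostly left of 0, between −0.90 (Pmvk) and 0.60 (Acaca).

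The promoters of the 4 called genes with the largest falls among those with an entry, of both genes that rose, and of Hmgcs1 are shown here, because most of the called genes moved in one direction and many are known SREBP targets. Hmgcs1 was added after its motif was seen. RefSeq promoters (build GRCm38.p6, 250 bases before to 50 after each annotated start) were matched by symbol for 26 of the 33 genes, and Fdps, Fdft1, Sqle, Stard4, Scd1, Scd2 and Fads1 had no entry. Capitals mark the SREBP motif TCACNCCAC and the NF-Y box CCAAT on either strand, in sequences read 5′ to 3′ along the gene's strand.
Pmvk, chr3:89454291-89454590, plus strand: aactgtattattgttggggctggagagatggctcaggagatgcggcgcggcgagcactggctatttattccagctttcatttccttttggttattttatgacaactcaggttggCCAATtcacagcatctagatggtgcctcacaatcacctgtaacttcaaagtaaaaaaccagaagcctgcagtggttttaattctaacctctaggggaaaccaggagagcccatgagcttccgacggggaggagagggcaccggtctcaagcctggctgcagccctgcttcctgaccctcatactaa
Mvd, chr8:122443373-122443672, minus strand: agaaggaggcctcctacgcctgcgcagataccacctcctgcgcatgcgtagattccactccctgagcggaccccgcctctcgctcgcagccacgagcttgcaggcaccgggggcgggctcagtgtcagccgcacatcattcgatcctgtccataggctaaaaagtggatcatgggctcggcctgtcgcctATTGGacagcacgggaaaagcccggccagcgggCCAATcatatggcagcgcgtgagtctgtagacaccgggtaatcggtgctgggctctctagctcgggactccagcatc
Tm7sf2, chr19:6067801-6068100, minus strand: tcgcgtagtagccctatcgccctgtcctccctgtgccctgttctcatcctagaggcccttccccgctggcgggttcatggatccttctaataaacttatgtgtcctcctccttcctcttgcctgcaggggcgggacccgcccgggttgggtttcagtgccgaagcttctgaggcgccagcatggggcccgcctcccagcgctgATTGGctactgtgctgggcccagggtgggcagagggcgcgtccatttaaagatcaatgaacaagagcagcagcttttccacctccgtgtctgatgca
Fads2, chr19:10101454-10101753, minus strand: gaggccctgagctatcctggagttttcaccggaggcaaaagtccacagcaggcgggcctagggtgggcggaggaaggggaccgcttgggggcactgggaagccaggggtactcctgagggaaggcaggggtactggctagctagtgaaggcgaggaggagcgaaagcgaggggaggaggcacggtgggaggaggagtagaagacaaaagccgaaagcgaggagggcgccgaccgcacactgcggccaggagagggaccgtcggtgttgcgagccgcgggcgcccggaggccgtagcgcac
Acaca, chr11:84195188-84195487, plus strand: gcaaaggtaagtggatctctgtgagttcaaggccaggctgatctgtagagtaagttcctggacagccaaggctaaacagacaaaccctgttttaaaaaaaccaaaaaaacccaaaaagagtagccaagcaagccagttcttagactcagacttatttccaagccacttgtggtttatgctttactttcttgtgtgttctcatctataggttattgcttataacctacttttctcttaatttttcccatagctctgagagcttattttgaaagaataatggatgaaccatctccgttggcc
Sc5d, chr9:42264251-42264550, minus strand: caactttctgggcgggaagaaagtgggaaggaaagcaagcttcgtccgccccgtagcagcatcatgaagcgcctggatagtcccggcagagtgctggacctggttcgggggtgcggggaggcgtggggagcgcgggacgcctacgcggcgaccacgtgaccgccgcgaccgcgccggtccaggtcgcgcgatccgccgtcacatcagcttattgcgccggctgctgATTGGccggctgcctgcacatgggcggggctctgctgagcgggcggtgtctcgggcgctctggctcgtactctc
Hmgcs1, chr13:119690101-119690400, plus strand: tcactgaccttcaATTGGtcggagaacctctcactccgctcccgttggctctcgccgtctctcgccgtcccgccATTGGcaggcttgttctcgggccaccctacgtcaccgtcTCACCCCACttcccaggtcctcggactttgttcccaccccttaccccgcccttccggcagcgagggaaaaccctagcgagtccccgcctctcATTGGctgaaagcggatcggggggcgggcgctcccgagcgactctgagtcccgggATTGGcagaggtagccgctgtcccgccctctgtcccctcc

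Hmgcs1 was the only one of the 26 genes whose window held TCACNCCAC, starting 137 bases before the start site, and 1.24% of all 32851 promoter windows (1.44% of genes) held it. The box CCAAT was found for 21 of the 26 genes (80.8%) and in 37.4% of all windows (41.1% of genes). The Sp1 box GGGCGG was found for 22 (84.6%) and in 35.7% of all windows (38.2% of genes), and the E-box CACGTG for 5 (19.2%) and in 7.15% of all windows (8.09% of genes). The shares over all windows were not limited to genes expressed in these cultures, whereas the 26 genes all passed the filter on low counts. Both strands were searched, genes with several start sites had several windows, and no hits of different motifs overlapped in the members' windows. Mvd carried CCAAT boxes 60 and 27 bases before its start, and Mvk, which fell as well, had 5 of them. A second start of Pmvk, further into the gene, held none of the 4 motifs, and neither did the windows of Acaca and Elovl6. The Acaca window lies at a start inside the gene, which spans 84129672 to 84401651 on chromosome 11. The genes that did not pass the test held the same boxes, among them Nsdhl with 4 CCAAT boxes and Hsd17b7 with 3.

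Within the mevalonate segment, the kinases and the decarboxylase that turn mevalonate into isopentenyl diphosphate fell most, and the enzymes on either side changed little or were not called. Of 7 genes 4 fell and 0 rose. Pmvk (ENSMUSG00000027952, GRCm38 chromosome 3, 89454541 to 89469013), which encodes phosphomevalonate kinase, was at 31.4, 31.7 and 27.7 CPM in knockout replicates 1, 2 and 3 against 58.8, 57.4 and 53.0 CPM in control replicates 1, 2 and 3. It had the largest fall of the 33 genes, with a log2 fold change of −0.90 (SE 0.07, edgeR adjusted p = 9.3e-09), and the highest knockout library lay well below the lowest control library. Mvk, mevalonate kinase, acts just before it and was at 34.9, 29.7 and 31.4 CPM in knockout against 41.5, 45.4 and 40.7 CPM in control libraries (log2 fold change −0.41, SE 0.07, edgeR adjusted p = 1.9e-04). Mvd, the mevalonate diphosphate decarboxylase that acts just after it, was at 41.6, 38.3 and 41.7 CPM in knockout against 55.2, 56.4 and 50.5 CPM in control libraries (−0.41, SE 0.06, edgeR adjusted p = 4.3e-05). These 3 consecutive enzymes sit on chromosomes 5, 3 and 8, and in each of them the knockout and control libraries were fully separated.

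Hmgcs1, which encodes the cytosolic HMG-CoA synthase, was the most abundant of the mevalonate genes and fell slightly. Its levels were 396, 419 and 413 CPM in knockout against 454, 464 and 471 CPM in control libraries, a log2 fold change of −0.18 (SE 0.04, edgeR adjusted p = 0.0022). Acat2, the thiolase that joins acetyl-CoA units in the cytosol, did not pass the test at 76.4, 83.3 and 79.8 CPM in knockout and 88.6, 94.9 and 78.0 CPM in control libraries (95% confidence interval of the fold 0.833 to 1.01). The libraries overlapped, and it was called lower under total-count scaling (log2 fold change −0.19, edgeR adjusted p = 0.026) and without control replicate 3 (−0.21, edgeR adjusted p = 0.0086). Acat2 also shares 97.7% identity with Acat3 over 1477 bases and 98.65% with Tcp1 over 445 bases. Over the 6 libraries Acat3 held 566 counts and Tcp1 126378, against 39723 for Acat2. Idi1, the isopentenyl diphosphate isomerase, was at 83.0, 97.6 and 85.7 CPM in knockout against 84.8, 82.6 and 87.2 CPM in control libraries, and the fold lay between 0.958 and 1.14.

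Fdps, farnesyl diphosphate synthase, was listed at only 4.13, 6.48 and 4.45 CPM in knockout and 4.73, 4.29 and 5.07 CPM in control libraries, the lowest level of the 33 genes. Its transcript shares 98.9% identity over 1062 bases with Gm3571, an annotated processed pseudogene that held 7792 counts over the 6 libraries against 2332 for Fdps itself. Gm3571 was at 14.6 to 15.3 CPM in knockout and 16.8 to 18.2 CPM in control libraries (log2 fold change −0.23, SE 0.08, edgeR adjusted p = 0.038). Another processed pseudogene, Gm5873 (96.7% identity over 1066 bases), held 1568 counts. Exons of Fdps also share 1124 bases with Gm43738, a same-strand protein-coding gene with 0 counts. The sources used here do not say how reads that match several of these genes were counted, so the level and the change of Fdps are uncertain.

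**Figure D2:**
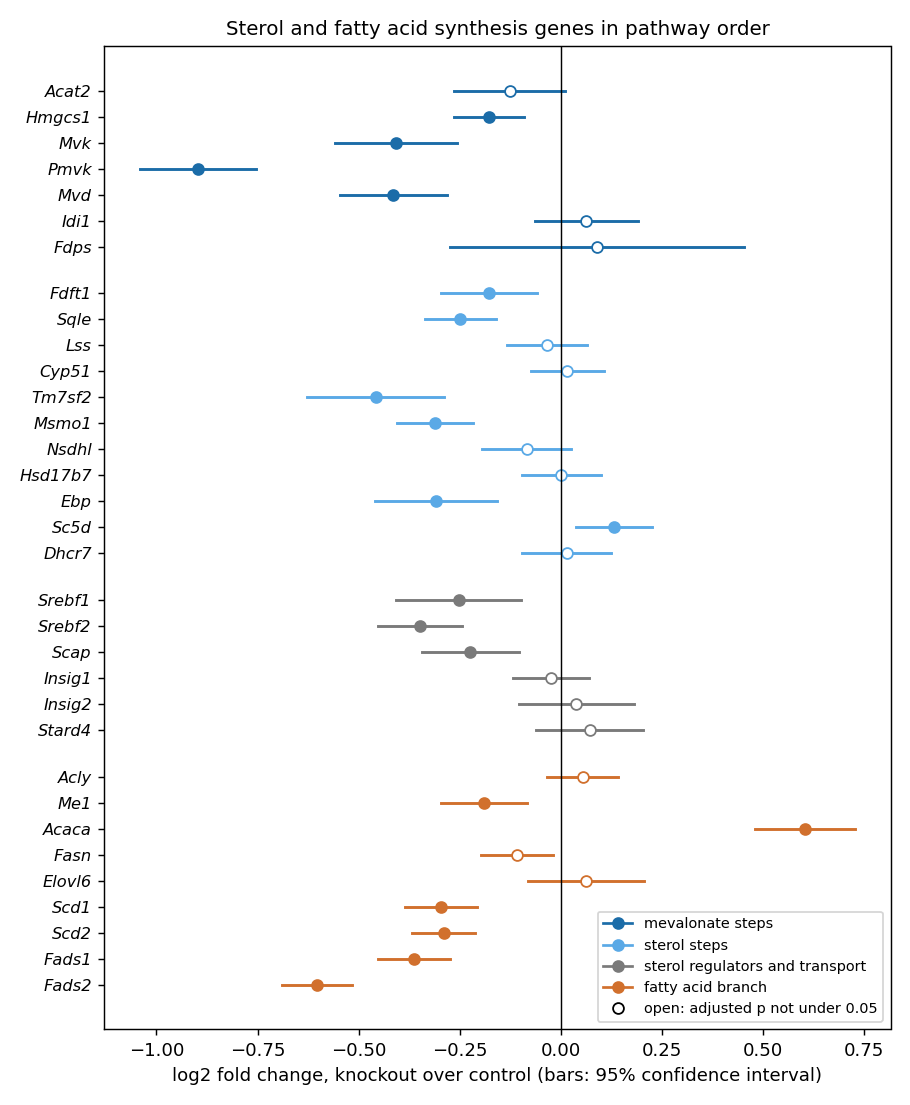
Log2 fold change (x axis, knockout over control) of each gene in pathway order from top to bottom, with 95% confidence intervals from edgeR's quasi-likelihood fit (n = 3 libraries per group). Filled points are genes with an adjusted p under 0.05, and Pmvk (−0.90), Fads2 (−0.60) and Acaca (0.60) lie farthest from 0.

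From squalene synthesis to cholesterol, 5 of 11 genes fell, 1 rose and 5 were not called. Runs of called genes and of genes not called alternated along the route. Fdft1, squalene synthase, and Sqle, squalene epoxidase, open this segment and both fell. Sqle was at 195, 196 and 197 CPM in knockout against 238, 231 and 231 CPM in control libraries, a log2 fold change of −0.25 (SE 0.04, edgeR adjusted p = 1.2e-04), with little spread in either group. Fdft1 was at 180, 211 and 186 CPM in knockout against 215, 227 and 211 CPM in control libraries (−0.18, SE 0.06, edgeR adjusted p = 0.018). Its groups met at the edge, knockout replicate 2 being the high one, and it lost its call without control replicate 2 (adjusted p = 0.089), knockout replicate 1 (0.10) or knockout replicate 3 (0.078). Exons of Fdft1 overlap those of the opposite-strand gene Ctsb by 774 bases, and the sources used here do not say whether counting used strand.

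The next steps, lanosterol synthase (Lss) and the lanosterol demethylase (Cyp51), did not pass the test. Lss was at 109, 111 and 109 CPM in knockout against 110, 111 and 116 CPM in control libraries, and Cyp51 at 329, 345 and 317 CPM in knockout against 323, 328 and 329 CPM in control libraries. The groups overlapped in both genes, and the 95% confidence intervals of their folds ran from 0.912 to 1.05 and from 0.950 to 1.08. Tm7sf2, a sterol reductase, fell to 16.7 ± 1.38 CPM in knockout cultures, against 23.0 ± 0.299 CPM in control cultures (SD, n = 3; log2 fold change −0.46, SE 0.08, edgeR adjusted p = 1.9e-04). Of its exonic bases, 532 are shared with Vps51, which lies on the same strand and was not called. Msmo1, the methylsterol monooxygenase, fell to 204, 217 and 211 CPM in knockout against 254, 272 and 259 CPM in control libraries (−0.31, SE 0.04, edgeR adjusted p = 2.3e-05). Its partners in the same demethylation, Nsdhl and Hsd17b7, were not called. Nsdhl was at 64.3, 67.1 and 63.0 CPM in knockout against 67.5, 70.2 and 68.3 CPM in control libraries, a separation within a fold interval of 0.874 to 1.02 that was called lower under total-count scaling (edgeR adjusted p = 0.028), and Hsd17b7 at 135, 143 and 140 CPM in knockout against 138, 137 and 144 CPM in control libraries.

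Ebp, the sterol isomerase, fell to 21.5, 20.1 and 21.5 CPM in knockout libraries, against 26.4, 26.8 and 25.1 CPM in control libraries (log2 fold change −0.31, SE 0.07, edgeR adjusted p = 0.0022). Sc5d, the desaturase that follows it, was the only sterol gene called higher, at 188, 201 and 189 CPM in knockout against 175, 175 and 177 CPM in control libraries. Its rise was small (0.13, SE 0.04, edgeR adjusted p = 0.026) and was lost under several other settings, with an adjusted p of 0.24 under total-count scaling and of 0.055, 0.099 and 0.10 without knockout replicate 2, control replicate 1 and control replicate 2. Dhcr7, the last reductase of the route, was at 65.2, 66.9 and 64.4 CPM in knockout against 67.3, 64.1 and 63.2 CPM in control libraries, and the groups overlapped.

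Among the regulators, the genes of the transcription factors and of their escort fell, and the genes of the retention proteins did not pass the test. Srebf2, which encodes the sterol-directed factor SREBP2 (ENSMUSG00000022463, chromosome 15, 82147181 to 82205379), was at 283, 249 and 283 CPM in knockout against 342, 346 and 349 CPM in control libraries. Its log2 fold change was −0.35 (SE 0.05, edgeR adjusted p = 2.1e-05). Srebf1, which encodes SREBP1 and is tied more to fatty acid genes, was at 82.5, 66.0 and 83.3 CPM in knockout against 93.7, 91.4 and 91.1 CPM in control libraries (−0.25, SE 0.07, edgeR adjusted p = 0.011), and Scap was at 139, 120 and 141 CPM in knockout against 161, 155 and 151 CPM in control libraries (−0.22, SE 0.06, edgeR adjusted p = 0.0046). In all 3 genes every knockout library was below every control library, and knockout replicate 2 was the lowest. Without that library the log2 fold changes were −0.29 for Srebf2, −0.15 for Srebf1 and −0.16 for Scap, with edgeR adjusted p-values of 5.1e-06, 0.015 and 0.0089.

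Insig1, itself a known SREBP target, was at 145, 141 and 145 CPM in knockout against 143, 147 and 149 CPM in control libraries, and Insig2 at 39.4, 45.7 and 43.0 CPM in knockout against 39.2, 42.8 and 42.7 CPM in control libraries. Stard4, a soluble sterol carrier, was at 60.1, 69.1 and 59.3 CPM in knockout against 58.2, 60.9 and 60.3 CPM in control libraries. None of these 3 was called, the groups overlapped in each, and the intervals of their folds were 0.921 to 1.05, 0.931 to 1.13 and 0.959 to 1.15. Over the 33 genes, knockout replicate 2 was the highest knockout library for 21 and the lowest for 9, Srebf1, Srebf2 and Scap among the 9.

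**Figure D3:**
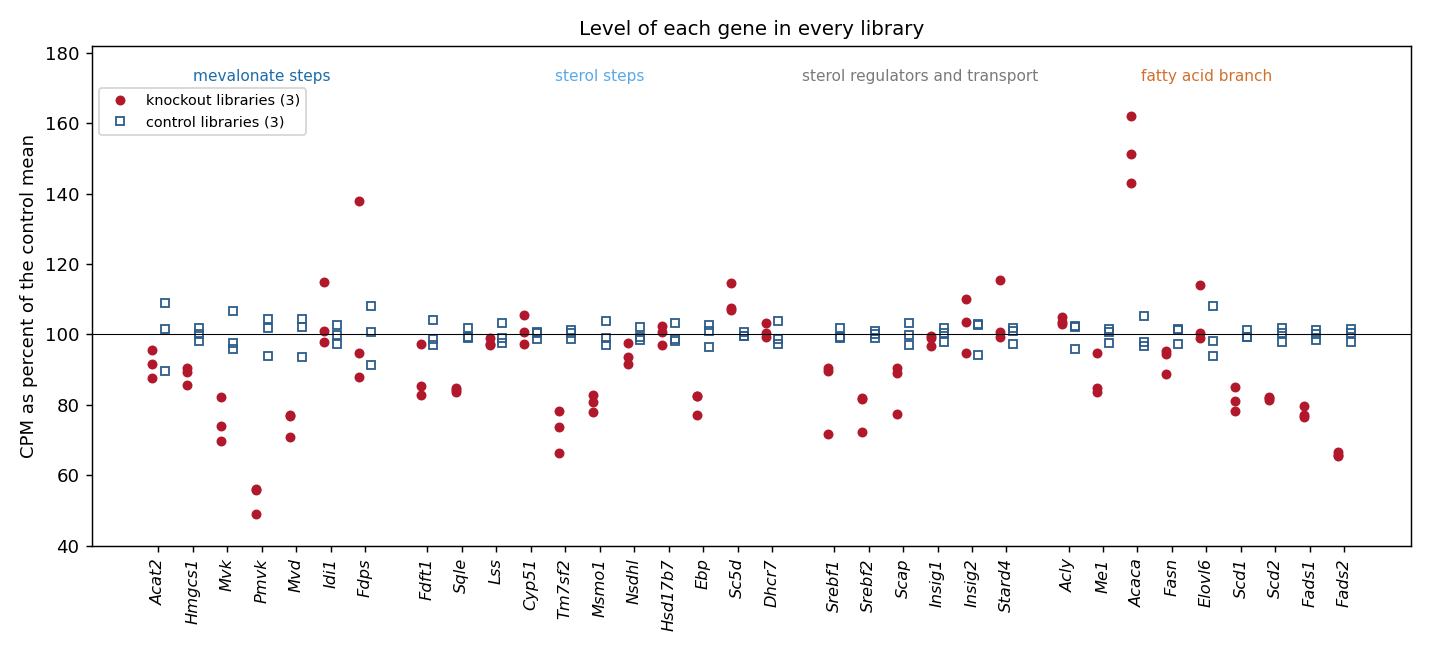
Level of each of the 33 genes in every library (y axis, CPM as a percentage of that gene's control mean), with knockout libraries as filled circles to the left of control libraries as open squares. The 3 knockout points of Pmvk, Scd2, Fads1 and Fads2 lie below all control points and those of Acaca above them.

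In the fatty acid branch, the desaturases fell together while the gene that commits acetyl-CoA to the branch rose. Fads2, the first desaturase of polyunsaturated fatty acid synthesis (ENSMUSG00000024665, chromosome 19, 10062765 to 10101746), was at 226, 227 and 230 CPM in knockout against 351, 347 and 339 CPM in control libraries. Its log2 fold change was −0.60 (SE 0.04, edgeR adjusted p = 2.2e-09), and without any 1 library it stayed between −0.62 and −0.60. Fads1, the other front-end desaturase of that route, lies 81.1 kb away on the opposite strand and was at 199, 206 and 198 CPM in knockout against 254, 262 and 259 CPM in control libraries (−0.36, SE 0.04, edgeR adjusted p = 2.1e-06).

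Scd1 and Scd2, the stearoyl-CoA desaturases that make monounsaturated fatty acids, lie 87.6 kb apart on chromosome 19 and fell by similar amounts. Scd2 was at 968, 977 and 979 CPM in knockout against 1165, 1195 and 1212 CPM in control libraries (log2 fold change −0.29, SE 0.04, edgeR adjusted p = 7.1e-06). Scd1 was at 337, 366 and 349 CPM in knockout against 427, 428 and 436 CPM in control libraries (−0.30, SE 0.04, edgeR adjusted p = 2.4e-05). The pair share 95.5% identity over 623 bases, so some reads may match both. All 4 desaturase genes had fully separated groups.

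Acaca, which encodes acetyl-CoA carboxylase 1, the enzyme that makes malonyl-CoA, was the one gene of the branch that rose. It was at 89.9, 96.4 and 85.1 CPM in knockout against 57.5, 58.2 and 62.6 CPM in control libraries, a log2 fold change of 0.60 (SE 0.06, edgeR adjusted p = 2.1e-07), and every knockout library was above every control library. Its transcript shares 99.2% identity over 6118 bases with the processed pseudogene Gm5182, which also rose, at 16.3, 21.0 and 17.2 CPM in knockout against 11.8, 12.8 and 13.9 CPM in control libraries (0.50, SE 0.10, edgeR adjusted p = 0.0010). Fasn, the fatty acid synthase that uses malonyl-CoA, was at 475, 446 and 479 CPM in knockout against 511, 489 and 509 CPM in control libraries. This difference missed the threshold (−0.11, SE 0.04, edgeR adjusted p = 0.053), although the groups did not overlap. Fasn was called as lower by DESeq2 (adjusted p = 0.034) and limma-voom (0.037). In edgeR it was also called lower under upper-quartile scaling (adjusted p = 0.028), total-count scaling (0.0033) and blocking by replicate number (0.040). It was not called under the other settings, leaving out each library among them.

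The genes that supply the branch differed from each other. Acly, ATP citrate lyase, which makes cytosolic acetyl-CoA for both branches, was at 385, 390 and 382 CPM in knockout against 379, 356 and 380 CPM in control libraries and was not called (95% confidence interval of the fold 0.977 to 1.10). Me1, the malic enzyme that supplies NADPH, fell to 206, 234 and 209 CPM in knockout against 241, 249 and 251 CPM in control libraries (log2 fold change −0.19, SE 0.05, edgeR adjusted p = 0.0059). A processed pseudogene of Me1, Gm7049 (98.4% identity over 1716 bases), rose at a far lower level, from counts that made 624 in all against 111497 for Me1. Elovl6, an elongase of saturated chains, was at 51.6, 59.4 and 52.4 CPM in knockout against 51.1, 48.9 and 56.2 CPM in control libraries, and the groups overlapped.

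Per gene length, as RPKM (CPM per kilobase of annotated exons), Scd2 was the most abundant of the 33 RNAs at 178 ± 1.05 in knockout and 218 ± 4.30 in control cultures (SD, n = 3). In control cultures Fads2 came next at 105 ± 1.98, then Hmgcs1 at 101 ± 1.87 and Scd1 at 88.0 ± 1.03 RPKM. In knockout cultures the order below Scd2 was different, with Hmgcs1 at 89.2 ± 2.57 followed by Cyp51 at 74.8 ± 3.11, Acly at 73.1 ± 0.789, Scd1 at 71.7 ± 2.95 and Fads2 at 69.1 ± 0.575 RPKM. Of these, the SD ranges of Cyp51, Acly and Scd1 in knockout cultures overlapped, as did those of Scd1 and Fads2. At the low end, Acaca was at 5.30 ± 0.332 in knockout and 3.48 ± 0.163 RPKM in control cultures, and Tm7sf2 at 3.80 ± 0.313 in knockout and 5.23 ± 0.068 RPKM in control cultures, so that these neighbours changed places. Acaca has 17074 annotated exonic bases, which lowers its RPKM where only some exons are used.

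**Figure D4:**
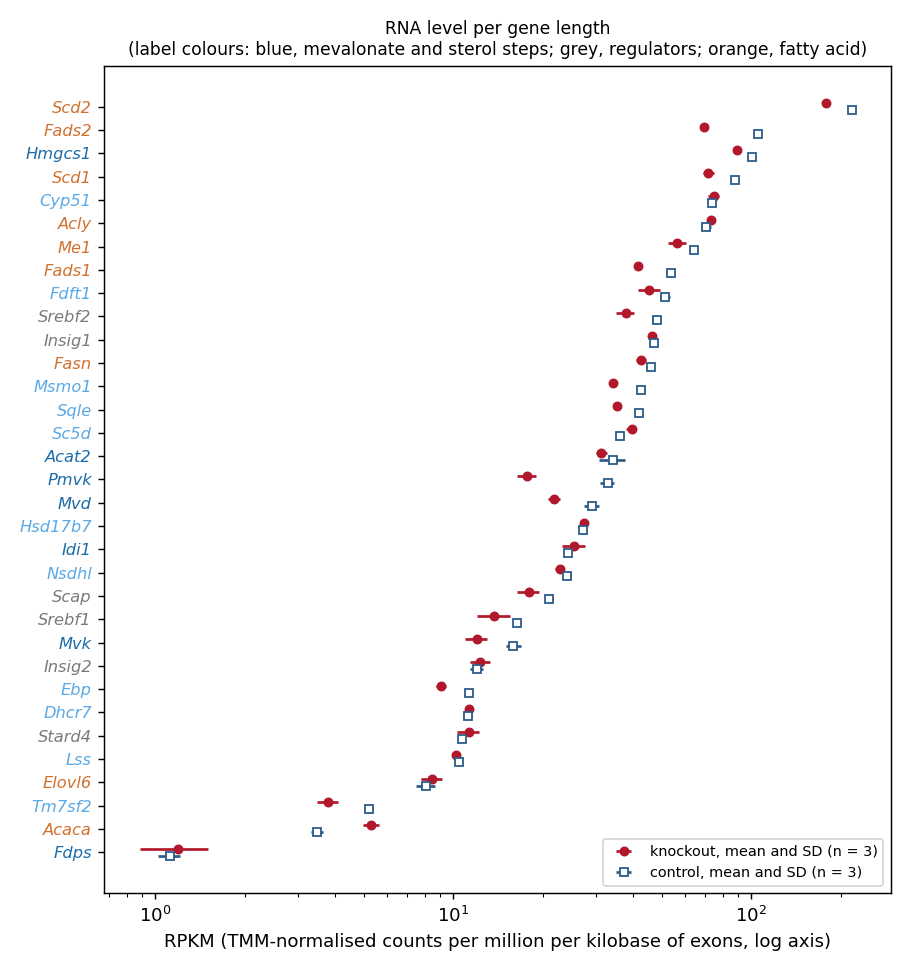
RNA level per gene length (x axis, RPKM on a log axis) of the 33 genes, ordered by the control mean, with knockout as filled circles drawn above control as open squares and bars for the SD of 3 libraries. Scd2 is at the top (178 in knockout, 218 in control) and Fdps at the bottom, where near-identical copies and an overlapping gene make its level uncertain.

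Other genes of the pathways also included calls in both directions. These lists too were chosen with earlier results of these data known. Their counts can be read beside the 19.6% called higher and 18.7% called lower over all tested genes. Among genes with a mean of at least 10 CPM these shares were 27.3% and 26.3%. Of 20 other sterol pathway genes, covering further enzymes, uptake, sensing and storage, 9 fell, 5 rose and 6 were not called, with a median log2 fold change of −0.09. Acat1, the mitochondrial thiolase, fell to 43.2 ± 1.91 CPM in knockout cultures, against 56.7 ± 0.982 CPM in control cultures (SD, n = 3; log2 fold change −0.39, edgeR adjusted p = 2.9e-05). Rnf139, a sterol-sensing ubiquitin ligase of the endoplasmic reticulum, rose to 52.1 ± 6.55 CPM in knockout cultures, against 34.1 ± 0.881 CPM in control cultures (0.61, edgeR adjusted p = 5.8e-06), and shares 1140 exonic bases with the opposite-strand gene Tatdn1. Of 19 other fatty acid genes 18 were tested, of which 7 fell, 1 rose and 10 were not called (median −0.12). Elovl5, an elongase of polyunsaturated fatty acids that works with the FADS desaturases, fell to 137 ± 4.39 CPM in knockout cultures, against 181 ± 3.83 CPM in control cultures (−0.40, edgeR adjusted p = 1.6e-06). Acsl4, an acyl-CoA synthetase that prefers arachidonic acid, was the gene that rose, to 118 ± 5.37 CPM in knockout cultures, against 68.5 ± 3.80 CPM in control cultures (0.79, edgeR adjusted p = 3.3e-09).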

How the data were processed

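RNA was extracted with Trizol and made into poly-T selected libraries, per the labels' protocols. The authors deposited raw counts per gene, made with HISAT2 2.2.1 and featureCounts 2.0.6 on GRCm38 (mm10), per the submitters' processing notes; no source used here names the annotation release, strand setting or treatment of multi-mapping reads. Columns were assigned by library name and grouped by title, 3 per genotype. Genes passing filterByExpr (minimum count 10, minimum total 15; 18530 of 54532) entered a fit in edgeR 4.0.16 under R 4.3.3 (TMM factors, robust glmQLFit and glmQLFTest, genotype only, two-sided, Benjamini-Hochberg over all genes tested, threshold 0.05). The fit was tested on simulated data. Intervals are 95% and use the fit's degrees of freedom.

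The members and lists were chosen with earlier results of these data known. All members were named, with genes of the smallest p in each list of other pathway genes (at most 4 by the rule). GENCODE coordinates of the same build, matched by identifier for 54495 genes, gave locations and exonic lengths. Copies were searched with BLAST 2.17.0 (at least 95% identity over 200 bases).

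Alternatives were median-of-ratios, upper-quartile and total-count scaling, DESeq2 1.42.0, limma-voom 3.58.1, no filter, 1 CPM in 3 libraries, a fit that was not robust, blocking by replicate number, leaving out each library, a threshold of 0.01 and a fold of 1.5. No pair of libraries within a genotype agreed within sampling noise, the chi-square per gene being 5.98 to 21.7.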

Additional observations from a re-analysis of the deposited data

How the results depend on the processing

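Median-of-ratios scaling, a filter of 1 CPM in 3 libraries and a fit without the robust option changed no call among the 33 genes. Against a minimum fold of 1.5 (edgeR's glmTreat), the counts called were 1 sterol gene (0 higher, 1 lower; Pmvk), 0 fatty acid genes (0 higher, 0 lower; also 0 at an unadjusted p under 0.05) and 1 other pathway gene (1 higher, 0 lower). The count of sterol genes called higher, which is Sc5d alone, was 0 under upper-quartile scaling, total-count scaling, no filter and a threshold of 0.01. Leaving out each library in turn, it ran from 0 to 1 and was 0 without control replicate 1, control replicate 2 or knockout replicate 2. Sterol genes called lower ran from 11 to 13, fatty acid genes called lower stayed at 5, other pathway genes called ran from 20 to 22, and the log2 fold change of Neo1 from −0.91 to −0.87.

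Signs turned only in genes that were not called in either fit. Under total-count scaling the log2 fold changes were −0.0015 for Idi1, −0.049 for Cyp51, −0.064 for Hsd17b7, −0.050 for Dhcr7, −0.026 for Insig2, −0.0024 for Elovl6 and −0.011 for Acly. Hsd17b7 was at −0.015 with upper-quartile scaling, −0.0016 with DESeq2, −0.0026 with limma-voom and −0.0059 with no filter, and Dhcr7 at −0.0013 with upper-quartile scaling. With 1 library left out, the ranges were −0.010 to 0.11 for Idi1, −0.14 to 0.22 for Fdps, −0.015 to 0.044 for Cyp51, −0.021 to 0.022 for Hsd17b7, −0.0085 to 0.038 for Dhcr7, −0.014 to 0.094 for Insig2, −0.0021 to 0.11 for Stard4 and −0.0045 to 0.12 for Elovl6; the cause was not tested.

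Deviations of same-numbered libraries from their group means correlated at 0.015, 0.019 and −0.0082. With 3 libraries per group, this cannot show whether a replicate number marks a shared litter or day. With the replicate block, 18 of the 33 genes were called lower and 2 higher, the added gene being Fasn (adjusted p = 0.040).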
